A study of Mus musculus with 42 samples.

Results

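The genes described here are the mouse chemokine ligand genes. They were taken as every row of the deposited count table whose Ensembl identifier maps, in the GENCODE M21 annotation of GRCm38, to a symbol made of Ccl, Cxcl, Cx3cl or Xcl, a number and at most 1 further letter, with pseudogenes left out. The rule gave 44 of the 53465 genes in the table. Of these, 37 lie on named chromosomes and 7 are copies on unplaced scaffolds, which held 4 counts in all. At least 1 count was found for 36 of the 44, and 33 passed the filter on low counts and were tested. Cxcl11 was left out because M21 lists it as a polymorphic pseudogene, although it had 8775 counts over the libraries used.

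Chemokine ligands are small secreted proteins that bind G protein-coupled receptors on moving cells and guide those cells along gradients. In the thymus, Cxcl12 and Ccl25 keep immature thymocytes in the cortex through their receptors Cxcr4 and Ccr9, while Ccl19 and Ccl21a draw Ccr7-bearing, positively selected thymocytes into the medulla. Medullary ligands of Ccr4, such as Ccl17 and Ccl22, and Xcl1, which is read by Xcr1 on dendritic cells, bring thymocytes and antigen-presenting cells together. SKI is a transcriptional cofactor best known as a repressor of TGF-beta signalling.

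RNA was measured in mouse thymic epithelial cells (TEC), 200 sorted cells to a library, of 3 subsets given by their gates. Cortical TEC (cTEC) were Epcam+CD45-UEA-Ly51+, and medullary TEC (mTEC) were UEA+Ly51lo and split into MHCII-low (Epcam+CD45-UEA+Ly51loMHCIIlo) and MHCII-high (Epcam+CD45-UEA+Ly51loMHCIIhi). Each subset was sampled in 3 genotypes: Control (5 libraries), KO, in which SKI was deleted specifically in TEC (7 libraries), and Ski flox Control (2 libraries). The labels name neither the driver of the deletion, nor the alleles of the Control, nor an age, a strain or the animals, so p-values here measure the spread between libraries, part of which may be technical.

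Replicate 2 of the MHCII-low mTEC Control (82 counts) and of the MHCII-high mTEC Control (41828 counts) were left out. The other 40 libraries held 3217251 to 7068077 counts each. The summed level of 7 cortical markers was 1520 to 11820 CPM (counts scaled to a common library total) in cTEC Control and 260 to 964 CPM in both mTEC Control groups. In cTEC KO replicate 5 the same sum was 418 CPM, with Psmb11 at 6.51 CPM and Prss16 at 3.90 CPM, so that library goes against its cortical label. A summed myeloid and dendritic list stood at 10210 CPM in MHCII-low mTEC KO replicate 2, against 716 to 2435 CPM in the other 6 libraries of its group. Counts of Ski itself overlapped between KO and Control in each subset (KO and Control medians: cTEC 10.4 and 18.5 CPM, MHCII-low mTEC 6.04 and 23.2 CPM, MHCII-high mTEC 6.41 and 11.1 CPM). The labels do not say which exons were deleted, so these whole-gene counts do not check the deletion. By library number the libraries form an earlier set (19 used) and a later set (21 used), a boundary seen in the data that no label names. All Ski flox Control libraries are in the later set.

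Promoter sequence is shown for the 6 ligand genes whose window holds a kappaB consensus match, the element bound by NF-kappaB factors, because the levels of all 6 are set out by subset below. RefSeq promoters (GRCm38.p6) matched 27 member symbols, and the 250 bases upstream of 33 annotated starts were searched on both strands. The consensus was found in 6 of the 33 windows, against 3.9% of all 32851 windows (1281). Matches are in capitals, and each stretch is written 5′ to 3′ on the strand of its gene. In Cxcl1, Cxcl2 and Cxcl3 the capitals are overlapping matches on both strands.
Ccl20, chr1:83116661-83116720, plus strand: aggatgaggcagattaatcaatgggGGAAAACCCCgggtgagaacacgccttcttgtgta
Cxcl3, chr5:90786003-90786063, plus strand: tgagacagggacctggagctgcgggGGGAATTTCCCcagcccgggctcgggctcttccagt
Cxcl1, chr5:90891149-90891209, plus strand: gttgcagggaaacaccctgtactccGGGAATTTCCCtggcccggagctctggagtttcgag
Cxcl2, chr5:90903777-90903837, plus strand: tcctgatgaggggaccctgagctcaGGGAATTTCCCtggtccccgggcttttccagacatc
Ccl9, chr11:83578637-83578696, minus strand: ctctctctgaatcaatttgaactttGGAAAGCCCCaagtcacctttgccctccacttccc
Cxcl10, chr5:92348958-92349073, minus strand: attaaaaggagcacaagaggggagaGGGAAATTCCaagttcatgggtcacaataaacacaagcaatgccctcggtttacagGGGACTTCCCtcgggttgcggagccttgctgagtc
An interferon-type motif (TTTC, 2 bases of any kind, TTTC) was found in the windows of Cxcl10, Ccl19 and Cxcl14, and in 2.98% of all windows (978). A match is a description of the sequence and says nothing of whether a factor binds there.

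Ligand genes passed the threshold between cTEC and mTEC in both genotypes and in no comparison between genotypes. In Control, 2 of the 33 tested genes passed (edgeR adjusted p under 0.05) between MHCII-low mTEC and cTEC, both higher in mTEC, where 0.773% of all genes passed (0.703% higher, 0.0694% lower). Between MHCII-high mTEC and cTEC in Control, 3 were higher and 1 lower, 4 of 33, against 1.11% of all genes (1.07% higher, 0.0434% lower). In KO, 5 were higher and 2 lower between MHCII-low mTEC and cTEC, 7 of 33, against 5.68% of all genes (5.19% higher, 0.49% lower). Between MHCII-high mTEC and cTEC in KO, 10 were higher and 1 lower, 11 of 33, against 14.7% of all genes (12.9% higher, 1.82% lower). The median log2 fold change of the 33 genes in these 4 comparisons was 1.39, 1.55, 1.65 and 1.69, against 0.14, 0.25, 0.25 and 0.28 over all 23040 genes tested. The fold change was above 0 for 24, 23, 24 and 22 of the 33. No ligand gene passed between MHCII-high and MHCII-low mTEC in Control (0% of all genes) or in KO (0.0174% of all genes, 0.00868% in each direction). There, 0 and 2 of the 33 had an unadjusted edgeR p under 0.05, against 1720 and 4021 of the 23040 genes. DESeq2 and limma voom called 0 ligand genes as well. Since each library is a bulk sample, fewer cells of a type and less RNA per cell cannot be told apart for any gene below.

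**Figure D1:**
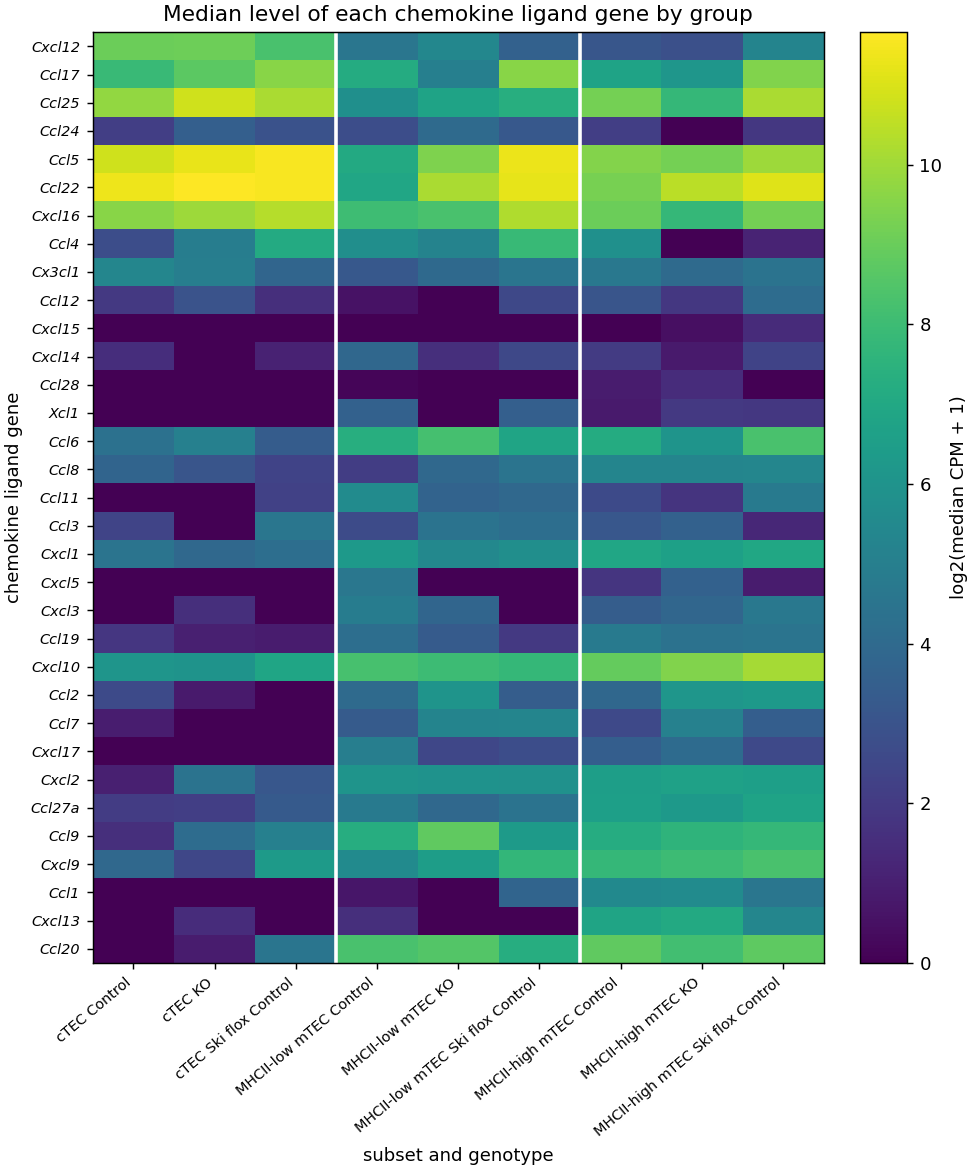
Heat map of the group median of each chemokine ligand gene with at least 100 counts (33 rows) in the 9 groups of subset and genotype (columns), coloured by log2(median CPM + 1). Rows are ordered by the difference between MHCII-high mTEC and cTEC and are to be read along the row, since levels of different genes are not corrected for length; Cxcl12, in the top row, is higher in the cTEC columns than in the mTEC columns, and Ccl20, in the bottom row, is lower.

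Cxcl12 (chromosome 6, 117168535 to 117181367, plus strand), which retains Cxcr4-bearing progenitors in the cortex, was called lower than in cTEC in 3 of the 4 comparisons with mTEC, and not in MHCII-low mTEC in Control. In cTEC Control it stood at 1980, 530.3, 583, 509 and 89.6 CPM. In Control mTEC it was at 25.8, 76.4, 18.65 and 20.1 CPM in MHCII-low and at 2.74, 38.6, 2.28 and 12.9 CPM in the MHCII-high libraries. No Control mTEC library reached the lowest Control cTEC library. In KO the lowest, median and highest levels were 44.2, 547 and 1336 CPM in cTEC, 3.19, 41.4 and 81.9 CPM in MHCII-low mTEC, and 0, 6.28 and 27.8 CPM in MHCII-high mTEC. The KO cTEC and MHCII-high libraries did not overlap, whereas cTEC KO replicate 5, at 44.2 CPM, lay within the MHCII-low range. Cxcl12 was lower in MHCII-high mTEC than in cTEC with a log2 fold change in KO of -5.95 ± 0.95 (SE, n = 7 and 7, edgeR adjusted p = 0.000227) and -5.70 ± 1.22 in Control (n = 4 and 5, edgeR adjusted p = 0.0147). The same difference for MHCII-low mTEC in KO was -4.06 ± 0.86 (n = 7 and 7, edgeR adjusted p = 0.00667). Within the earlier and later sets, the KO fold changes were -6.20 and -4.97 for MHCII-high mTEC (edgeR adjusted p = 0.021 and 0.0168), and both keep the direction of the pooled value. The Control call was lost without MHCII-high mTEC Control replicate 1 or 4, where the adjusted p reached 0.0522. Markers of fibroblasts, which also make Cxcl12, moved in the same direction: between MHCII-high mTEC and cTEC in KO, 2 of 7 were called lower (1.82% of all genes), with a median log2 fold change of -3.00, and in Control 0 of 7, with a median of -3.96. The 7 genes summed to 0.413 to 2485 CPM in cTEC Control (1 to 7 genes with a count), 11.98 to 6110 CPM in cTEC KO (1 to 7 genes) and 30 to 178 CPM in MHCII-high mTEC KO (2 to 6 genes). The highest sums, 2485 CPM in cTEC Control replicate 1 and 6110 CPM in cTEC KO replicate 1, fell where Cxcl12 was highest (1980 and 1336 CPM). cTEC Control replicate 3, with the lowest sum of 0.413 CPM, held 583 CPM of Cxcl12. The part of fibroblasts in the Cxcl12 levels was not tested.

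Ccl25, the Ccr9 ligand of the thymic cortex and the small intestine, was high in cTEC and in part of the MHCII-high mTEC libraries. It was counted at 4364, 865, 1473, 708 and 278 CPM in cTEC Control and at 33.6, 1811 and 2634 CPM (lowest, median and highest) in cTEC KO. In Control mTEC it was at 76.4, 391, 16.0 and 32.4 CPM in MHCII-low and at 1131, 570.3, 48.8 and 623 CPM in MHCII-high libraries. The ranges of cTEC and MHCII-high mTEC overlapped in both genotypes. In Ski flox Control it was at 1103 and 1217 CPM in cTEC and at 1431 and 893 CPM in MHCII-high mTEC. Ccl25 passed the threshold in none of the comparisons. Its lowest cTEC library was again KO replicate 5. Without that library, or without MHCII-high mTEC KO replicate 7, edgeR called Ccl25 between MHCII-high mTEC and cTEC in KO, and DESeq2 called it there with every library in the fit.

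The medullary counterpart, the Ccr7 ligands, could be read for Ccl19 alone. Ccl21a (chromosome 4, 42772860 to 42773993, minus strand) is hardly counted: it had 15 counts in 6 libraries. Of its 50-base windows, 71.6% are shared with other annotated genes (Ccl21b, Gm21541, Gm13304 and Gm10591), each of which stood at 0 counts, and Ccl21b shares 100% of its windows. A read that fits several copies may not have been assigned to any, so these counts give no level for Ccl21a. Ccl19 (chromosome 4, 42754525 to 42756577, minus strand) had 2860 counts and shares 52% of its windows with other annotated genes. Among these, Gm2564 had 0 counts, while Ccl19-ps1 (3321 counts) and Gm12407 (6400 counts) each had more than Ccl19. Reads that fit several copies may not have been assigned to Ccl19, so its level is uncertain. It stood at 4.75, 2.63, 3.86, 1.16 and 2.48 CPM in cTEC Control and at 24.9, 50.3, 27.1 and 11.1 CPM in MHCII-high mTEC Control. In KO it was at 0, 1.04 and 11.3 CPM (lowest, median and highest) in cTEC, 2.09, 9.24 and 44.5 CPM in MHCII-low mTEC, and 11.6, 19.9 and 115 CPM in MHCII-high mTEC. No MHCII-high library overlapped cTEC in either genotype. The difference between MHCII-high mTEC and cTEC passed in KO (log2 fold change 3.26 ± 0.92 (SE), n = 7 and 7, edgeR adjusted p = 0.0208). It did not pass without MHCII-high mTEC KO replicate 1, the library at 115 CPM.

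Ccl20 (chromosome 1, 83116766 to 83119167, plus strand), the ligand of Ccr6 whose kappaB match is shown above, was at or near 0 in most cTEC libraries and high in both mTEC subsets. It had 0 counts in 4 cTEC Control libraries and 3.19 CPM in the other. MHCII-low mTEC Control libraries held 139, 1067, 182 and 445 CPM, and MHCII-high mTEC Control libraries held 531, 644, 379 and 179 CPM. Every Control mTEC library lay above every Control cTEC library. In KO, cTEC libraries were at 0.871, 106.6, 0.919, 8.79, 0.26, 0 and 0 CPM, MHCII-low mTEC at 96.4, 372 and 1031 CPM (lowest, median and highest), and MHCII-high mTEC at 54.2, 276.5 and 773 CPM. Replicate 2 is the one KO cTEC library inside the mTEC range. The log2 fold change over cTEC was 9.45 ± 1.86 (SE) for MHCII-low and 9.37 ± 1.85 for MHCII-high mTEC in Control (n = 4 and 5 each, edgeR adjusted p = 0.0105 and 0.00739). In KO it was 4.97 ± 1.25 and 4.32 ± 1.22 (n = 7 and 7 each, edgeR adjusted p = 0.0189 and 0.0204), and 8.09 and 7.44 without cTEC KO replicate 2. Ccl20 passed in all 4 comparisons of an mTEC subset with cTEC, which share their cTEC libraries within a genotype, and it kept all 4 calls whichever library was left out (highest adjusted p 0.046).

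**Figure D2:**
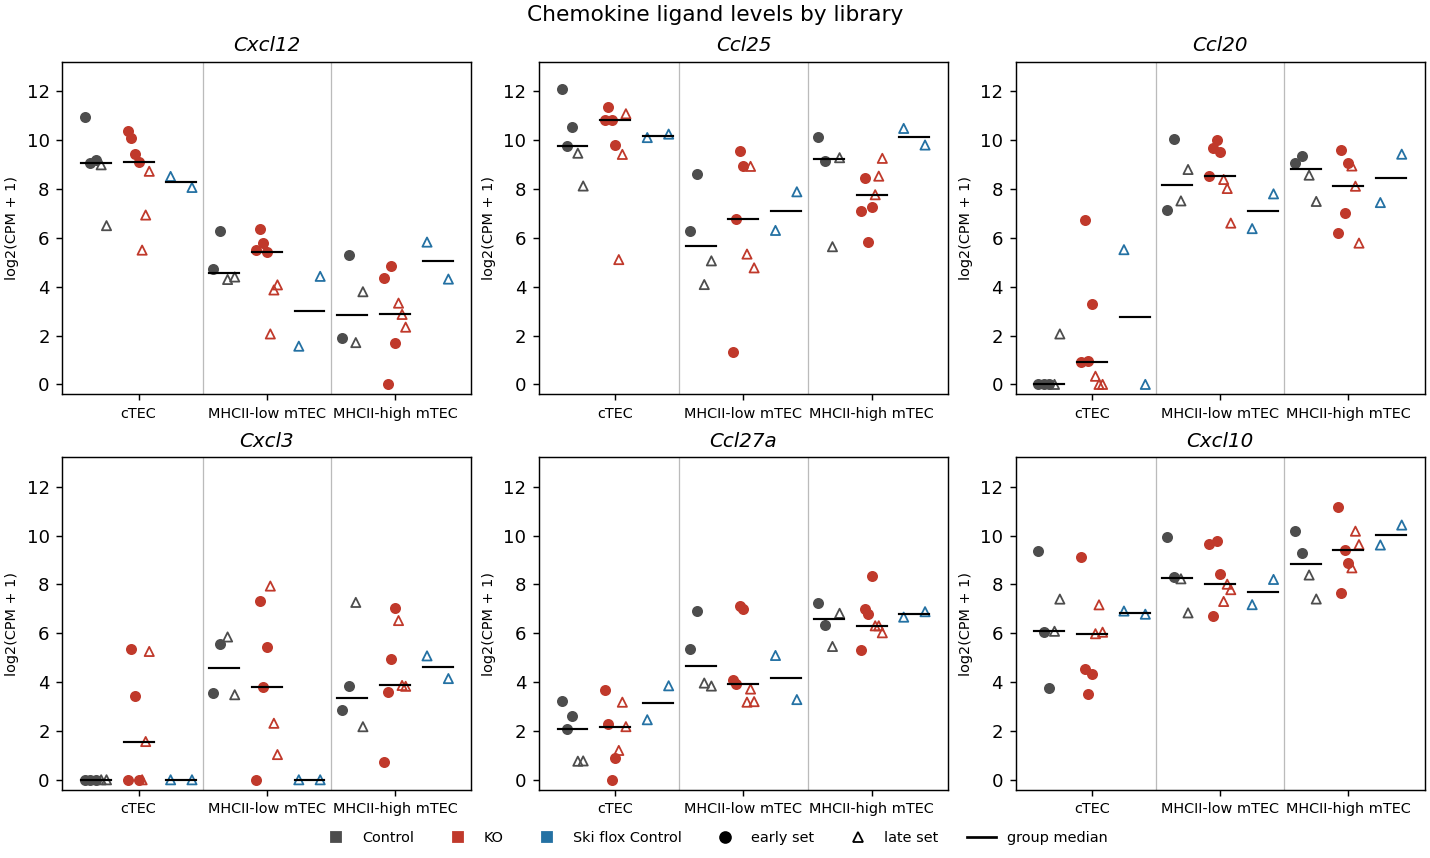
Levels of Cxcl12, Ccl25, Ccl20, Cxcl3, Ccl27a and Cxcl10 in each of the 40 libraries, on a log2(CPM + 1) axis, by subset and genotype; filled circles are libraries of the earlier set, open triangles those of the later set, and bars are group medians. Cxcl12 is high in the cTEC groups, where its Control libraries span 89.6 to 1980 CPM, and Ccl20 is at or near 0 in cTEC but for KO replicate 2 (106.6 CPM) and 1 Ski flox Control library (44.8 CPM).

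Ccl27a (chromosome 4, 41769467 to 41774247, minus strand), an epithelial ligand of Ccr10 known from skin, was higher in MHCII-high mTEC than in cTEC in both genotypes. cTEC Control libraries held 8.27, 3.22, 5.10, 0.695 and 0.708 CPM, and MHCII-high mTEC Control libraries 148, 79.1, 43.0 and 112 CPM. KO levels were 0, 3.52 and 11.8 CPM (lowest, median and highest) in cTEC, 8.06, 14.2 and 137.5 CPM in MHCII-low mTEC, and 39.0, 78.2 and 322 CPM in MHCII-high mTEC. MHCII-high mTEC did not overlap cTEC in Control or in KO, and the MHCII-low range overlapped both others in KO. For MHCII-high mTEC over cTEC the log2 fold change was 4.79 ± 0.89 (SE) in KO (n = 7 and 7, edgeR adjusted p = 0.00113) and 4.72 ± 1.06 in Control (n = 4 and 5, edgeR adjusted p = 0.0206). For MHCII-low mTEC in KO it was 3.44 ± 0.83 (n = 7 and 7, edgeR adjusted p = 0.0145), with 4.15 in the earlier and 1.05 in the later set (edgeR adjusted p = 0.154 and 0.433). The Control call was lost without any 1 of cTEC Control replicates 2, 3, 4 and 5, where the adjusted p reached 0.0719. Ccl27a shares 45% of its 50-base windows with other annotated genes, among them Gm20878 (0 counts), Gm13306 (31 counts) and Ccl27b (3 counts), so its level is uncertain to that extent. Ccl28, the other ligand of Ccr10, had 160 counts in 11 libraries. Its highest KO level in MHCII-high mTEC was 8.35 CPM, and it had 0 counts in all 7 cTEC KO libraries, so the summed level was at least 27.4-fold higher in MHCII-high mTEC (edgeR adjusted p = 0.0271). Of those 7 MHCII-high mTEC KO libraries, 3 were also at 0, and without replicate 7 the bound was 14.4-fold.

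The Cxcr2 ligands among the 44 genes, neutrophil attractants, are Cxcl1, Cxcl2, Cxcl3 and Cxcl5. They lie on chromosome 5 between 90759360 and 90905938, with Cxcl15 between Cxcl3 and Cxcl1. By edgeR, Cxcl3 passed in both Control comparisons of mTEC with cTEC, and the other 3 passed in none. Cxcl3 had 0 counts in all 5 cTEC Control libraries. It was at 10.8, 46.8, 56.65 and 10.2 CPM in MHCII-low and at 6.30, 13.45, 152.8 and 3.51 CPM in MHCII-high mTEC Control, so no library overlapped. With cTEC at its floor of 3 counts over the group, Cxcl3 was at least 316-fold higher in MHCII-low mTEC (edgeR adjusted p = 0.0451) and at least 396-fold higher in MHCII-high mTEC (edgeR adjusted p = 0.0315). The MHCII-low call was lost whichever of the 9 libraries was left out (adjusted p 0.053 to 0.121). The MHCII-high call was lost without any 1 cTEC Control library or MHCII-high mTEC Control replicate 4 (highest adjusted p 0.0826). Replicate 4, at 152.8 CPM, also set the size, and without it the bound was 78.4-fold. KO cTEC libraries did hold Cxcl3, at 0, 39.99, 9.88, 0, 0, 1.96 and 37.2 CPM, and overlapped both KO mTEC groups.

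Cxcl1 and Cxcl2, which carry the same kappaB element as Cxcl3 in their promoter windows, passed in no comparison by edgeR. Cxcl1 was at 21.3, 14.3, 0, 31.98 and 111 CPM in cTEC Control and at 137, 103, 141 and 73.0 CPM in MHCII-high mTEC Control. Cxcl2 was at 1.06, 0, 0, 9.73 and 7.08 CPM in cTEC Control and at 127, 35.5, 149 and 54.85 CPM in MHCII-high mTEC Control. The 2 groups did not overlap for Cxcl2, which DESeq2 and limma voom called in both Control comparisons with cTEC, and overlapped for Cxcl1. Cxcl5 had 0 counts in all cTEC Control libraries and reached 44.6 CPM in MHCII-low and 34.7 CPM in MHCII-high mTEC Control.

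Cxcl9 and Cxcl10, interferon-inducible ligands of Cxcr3 that are neighbours on chromosome 5 (92321347 to 92328079 and 92346638 to 92348889, minus strand), passed between MHCII-high mTEC and cTEC in KO. Cxcl9 was at 0, 4.52 and 62.7 CPM (lowest, median and highest) in cTEC KO and at 121.5, 255 and 720 CPM in MHCII-high mTEC KO. These groups did not overlap, and the log2 fold change was 4.17 ± 0.99 (SE, n = 7 and 7, edgeR adjusted p = 0.00791). By set it was 7.04 in the earlier and 2.60 in the later libraries (edgeR adjusted p = 0.0342 and 0.146). In Control, Cxcl9 was at 1.06, 11.7, 18.2, 42.9 and 14.2 CPM in cTEC and at 314, 196, 238 and 59.5 CPM in MHCII-high mTEC, again with no overlap but without passing. Cxcl10 was at 10.3, 62.2 and 552 CPM in cTEC KO and at 198, 688 and 2306 CPM in MHCII-high mTEC KO. Its groups overlapped through cTEC KO replicate 1, the library at 552 CPM. The log2 fold change of Cxcl10 was 2.79 ± 0.78 (SE, n = 7 and 7, edgeR adjusted p = 0.0202), and 4.03 without replicate 1 of both cTEC groups (edgeR adjusted p = 0.000986). cTEC Control replicate 1 was likewise the highest of its group, at 668.5 CPM against 12.7 to 168 CPM. Replicate 1 also had the highest sum of the 7 cortical markers in both cTEC groups, at 11820 CPM in Control and 10030 CPM in KO. The fit without these libraries was chosen after seeing the data.

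Ccl22 and Ccl17, the Ccr4 ligands, together with Ccl5, a T cell and monocyte attractant, and Cxcl16, read by Cxcr6, took the larger share of the ligand CPM in the median cTEC library. The 4 genes took a median of 78% of the summed ligand CPM in cTEC Control (1.23 to 90.4%) and 73.5% in cTEC KO (15 to 94.1%). Ccl22 stood at 1.23, 3109, 2600, 2038 and 3771 CPM in cTEC Control, and at 69.0, 3233 and 4698 CPM (lowest, median and highest) in cTEC KO. Ccl5 was at 3.17, 1799, 1717, 1798 and 2611 CPM in cTEC Control, and at 669, 2506 and 3092 CPM in cTEC KO. Replicate 1 of each genotype is far below the other cTEC libraries for both genes. Those libraries had the highest sums of the 7 cortical markers in their groups. The sum was 11820 CPM in Control (others 1520 to 3558 CPM) and 10030 CPM in KO (others 418 to 8554 CPM). Ccl17 repeated the pattern with 2.11, 326, 208, 242 and 683 CPM in cTEC Control, and Cxcl16 with 84.7, 763, 762, 1483 and 1148 CPM. In mTEC Control, Ccl22 was at 208, 1151, 25.6 and 0.261 CPM in MHCII-low and at 198, 126, 1047 and 1326 CPM in MHCII-high libraries. Corrected for exon length, Ccl5 had the highest median of all ligand genes in cTEC Control, at 1873 CPM per kilobase, followed by Ccl22 at 1118, Ccl17 at 471, Cxcl16 at 253, Ccl25 at 116 and Cxcl12 at 64.9. Of the 3021 exon bases of Cxcl16, 552 overlap exons of Zmynd15, whose reads cannot be told apart without strand.

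In cTEC, these 4 genes were lowest in the libraries where Ccr7, carried by thymocytes and mature dendritic cells, and Flt3, a receptor of the dendritic lineage, were lowest. Ccr7 was at 14.8, 1924, 1026, 4834 and 4274 CPM and Flt3 at 1.58, 183, 152, 605 and 499 CPM in the same cTEC Control libraries, so replicate 1 was lowest for both. In cTEC KO, replicate 1 was lowest for Ccr7 (195.5 CPM against 1451 to 4567 CPM) and for Flt3 (2.18 CPM against 103 to 373 CPM). Of the whole list of 12 myeloid and dendritic genes, 11 to 12 had a count in cTEC Control libraries and 8 to 12 in cTEC KO. Its sum was lowest in replicate 1 of both groups. That was 251 CPM in cTEC Control (others 1897 to 2923 CPM) and 236 CPM in cTEC KO (others 1050 to 2532 CPM). A list of 10 thymocyte genes summed to 4625, 2754, 1518, 1331 and 2189 CPM in the same cTEC Control libraries. It was highest in replicate 1, where Ccr7 was lowest, with no steady order against Ccr7 in the others. In cTEC KO replicate 1 that sum was 2418 CPM, within a group range of 182.5 to 3105 CPM. In MHCII-high mTEC KO the 4 ligands moved with the library set. Ccl22 was at 14.96 to 1403 CPM in the earlier and 1512 to 2913 CPM in the later set, Ccl17 at 16.5 to 68.9 and 365 to 670 CPM, and Cxcl16 at 111 to 215 and 526.2 to 701 CPM. Ccr7 was at 31.9 to 175 CPM in the earlier and 1791 to 2202 CPM in the later set, and Flt3 at 1.73 to 55.5 and 158 to 214 CPM. MHCII-high mTEC Control, with 2 libraries in each set, showed the same split. There, Ccl22 was at 126 to 198 CPM in the earlier and 1047 to 1326 CPM in the later set. Ccr7 was at 9.31 to 161 and 1156 to 2437 CPM. Ccl5, Ccl17, Cxcl16 and Flt3 were likewise higher in the later set, without overlap. MHCII-low mTEC Control did not follow: in replicate 5, Ccl22 was at 0.261 CPM with Ccr7 at 212 CPM and Flt3 at 40.7 CPM, and in replicate 1, Ccl22 was at 208 CPM with Ccr7 at 48.15 CPM and Flt3 at 0. The list of 12 myeloid and dendritic genes did not separate the sets in MHCII-high mTEC KO. It summed to 1403 to 3179 CPM in the earlier and 2351 to 2443 CPM in the later set. In MHCII-high mTEC Control the sums were 964 and 2041 CPM in the earlier and 1653 and 1708 CPM in the later set. The part of other cell types in these ligand levels was not tested. None of the 4 genes passed in any comparison by edgeR with all libraries in the fit. Without replicate 1 of both cTEC groups, 14 ligand genes in place of 11 passed between MHCII-high mTEC and cTEC in KO. Cxcl16 was among them, with Ccl7, Cxcl5 and Cxcl13 as further additions and Ccl1 lost. This fit was chosen after seeing the data. The share of all genes it called was not counted, so the 14 cannot be set against it.

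**Figure D3:**
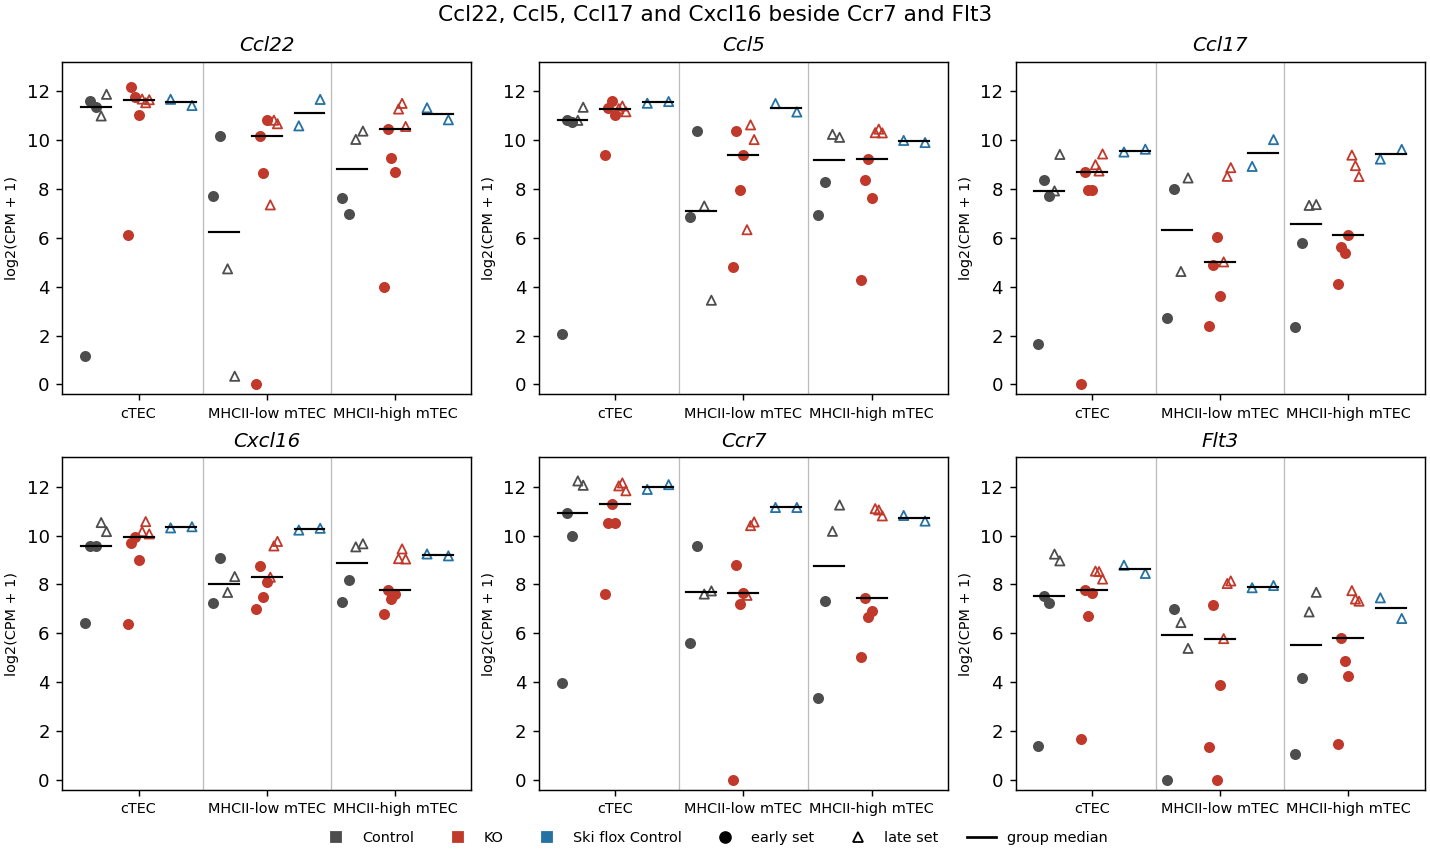
Levels of Ccl22, Ccl5, Ccl17 and Cxcl16 beside Ccr7 and Flt3 in each of the 40 libraries, on a log2(CPM + 1) axis, by subset and genotype; filled circles are the earlier set, open triangles the later set, and bars are group medians. Replicate 1 of cTEC Control is the low circle in every panel (Ccl22 at 1.23 CPM, Ccr7 at 14.8 CPM). In MHCII-high mTEC Control and KO the triangles lie above the circles.

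Ccl2 (chromosome 11, 82035571 to 82037453, plus strand), the monocyte attractant read by Ccr2, was at 0, 0.781 and 13.3 CPM (lowest, median and highest) in cTEC KO. It was at 1.68, 63.9 and 400 CPM in MHCII-low mTEC KO and at 5.07, 68.0 and 246 CPM in MHCII-high mTEC KO. Both mTEC ranges overlapped cTEC. Its log2 fold change over cTEC was 4.89 ± 1.31 (SE) for MHCII-low and 5.16 ± 1.32 for MHCII-high mTEC (n = 7 and 7 each, edgeR adjusted p = 0.0263 and 0.013). The MHCII-low call was lost without MHCII-low mTEC KO replicate 2, the library with the highest myeloid sum. By set, the MHCII-low fold change was 5.16 in the earlier and 1.24 in the later libraries (edgeR adjusted p = 0.199 and 0.751). In Control, Ccl2 was at 35.7, 0, 5.10, 1.62 and 6.37 CPM in cTEC and overlapped both mTEC groups. Ccl1 (chromosome 11, 82176657 to 82305690, minus strand) is a ligand of Ccr8. It was at 0, 0, 0, 2.98, 0, 0 and 3.69 CPM in cTEC KO and at 195, 0, 0, 23.8, 114, 48.9 and 56.3 CPM in MHCII-high mTEC KO. The groups overlapped at 0, and the log2 fold change between them (5.96 ± 1.97, SE, n = 7 and 7, edgeR adjusted p = 0.0404) did not pass in 8 of 14 fits with 1 library left out (each of cTEC KO replicates 1 to 6 and MHCII-high mTEC KO replicates 1 and 5).

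Ccl6 and Ccl9, ligands of Ccr1 that are neighbours of Ccl5 on chromosome 11, passed in no comparison by edgeR, and DESeq2 called both in each Control comparison with cTEC. Ccl6 was at 4.58, 23.4, 27.0, 10.2 and 19.65 CPM in cTEC Control and at 84.75, 1044, 16.7 and 233 CPM in MHCII-low mTEC Control. Ccl9 was at 1.94, 0, 0, 8.57 and 15.4 CPM in cTEC Control and at 85.7, 1035, 10.8 and 222 CPM in MHCII-low mTEC Control. cTEC KO replicate 2 held 766 CPM of Ccl6 and 517 CPM of Ccl9, inside the mTEC range, as it did for Ccl20.

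Ccl3, Ccl4, Ccl7, Ccl8, Ccl11, Ccl12, Ccl24 and Xcl1 each had a group median of at least 10 CPM and passed in no comparison by edgeR with all libraries in the fit. Ccl4, a product of activated lymphocytes and macrophages, was at 0 to 264 CPM (median 28.3) over 14 cTEC libraries, 0 to 458 CPM (median 94.3) over 13 MHCII-low mTEC libraries and 0 to 388 CPM (median 1.25) over 13 MHCII-high mTEC libraries. Ccl3, its close relative, had medians of 2.12, 19.3 and 5.85 CPM in the same order of subsets. Ccl8, like Ccl1 a ligand of Ccr8, had medians of 6.604, 6.63 and 38.15 CPM, with 600 CPM in 1 MHCII-high mTEC library.

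Ccl7 and Ccl12, further Ccr2 ligands, had subset medians of 0, 14.6 and 7.94 CPM and of 4.57, 0.246 and 6.18 CPM. Ccl11 and Ccl24, the eosinophil attractants read by Ccr3, had medians of 0, 13.5 and 4.69 CPM and of 4.03, 11.3 and 0 CPM. Xcl1, the ligand of Xcr1, was at 0 in 11 of 14 cTEC libraries, and its medians were 3.36 CPM in MHCII-low and 1.01 CPM in MHCII-high mTEC. Its highest level was 58.6 CPM, in cTEC, and the subsets overlapped for Xcl1.

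The remaining called genes have fewer counts or less settled receptors. Cx3cl1, a membrane-bound ligand of Cx3cr1 that lies between Ccl22 and Ccl17 on chromosome 8 (94772009 to 94782427, plus strand), was the other ligand gene called lower in mTEC than in cTEC. It was at 1.94, 30.6 and 178 CPM (lowest, median and highest) in cTEC KO and at 4.99, 14.8 and 24.5 CPM in MHCII-low mTEC KO. The log2 fold change was -2.17 ± 0.68 (SE, n = 7 and 7, edgeR adjusted p = 0.0494). The groups overlapped, and the call was lost in 12 of 14 fits with 1 library left out (adjusted p up to 0.124); it held without cTEC KO replicate 2 or 5. Cxcl14 (chromosome 13, 56288643 to 56296551, minus strand) had 0 counts in all 7 cTEC KO libraries. It was at 0.209, 2.01 and 23.4 CPM in MHCII-low mTEC KO, at least 70-fold higher (edgeR adjusted p = 0.0129), and at 0, 0.777 and 13.5 CPM in MHCII-high mTEC KO, at least 54.9-fold higher (edgeR adjusted p = 0.0116). Without MHCII-low mTEC KO replicate 2 or MHCII-high mTEC KO replicate 4 these bounds were 39.9-fold and 33-fold. In cTEC Control it was at 4.93, 1.90, 0, 0 and 3.19 CPM, overlapping both KO mTEC groups.

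Cxcl17, a mucosal chemokine (chromosome 7, 25400053 to 25412886, minus strand), had 1 count over the 7 cTEC KO libraries. It was at 0, 0, 4.57, 6.96, 478, 5.02 and 0 CPM in MHCII-low mTEC KO, and MHCII-low over cTEC gave a ratio of 2910 with a counting interval of 521 to 115000 (edgeR adjusted p = 0.00707). Replicate 5 alone, at 478 CPM, carries most of that sum, and without it the ratio was 103. In MHCII-high mTEC KO it was at 0, 15.7 and 64.8 CPM (lowest, median and highest), a ratio of 969 with an interval of 174 to 38300 (edgeR adjusted p = 0.0083). Cxcl13, the Cxcr5 ligand that draws B cells, was at 182, 352, 43.0 and 27.7 CPM in MHCII-high mTEC Control. It had 0 counts in 4 of the 5 cTEC Control libraries and 43.4 CPM in the other, and it passed in no comparison by edgeR. Of the other members, Ccl26 had no count, Cxcl15 had 223 counts in 8 libraries and Ccl27b had 3.

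Between KO and Control, no ligand gene passed in any subset, where 0% of all genes passed. An unadjusted edgeR p under 0.05 was found for 8 of the 33 in cTEC, 0 in MHCII-low mTEC and 0 in MHCII-high mTEC. Over all 23040 genes it was found for 2443, 1639 and 1586 in the same order. limma voom called 0 in each subset, and DESeq2 called 5 in cTEC (Ccl20, Ccl9, Cxcl14, Cxcl3 and Cxcl5) and 0 in both mTEC subsets. The share of all genes that DESeq2 called in cTEC was not counted, so the 5 cannot be set against it. The median log2 fold change of the 33 was 0.30 in cTEC, 0.39 in MHCII-low mTEC and 0.26 in MHCII-high mTEC, against 0.00, 0.00 and -0.04 over all genes. The smallest p in cTEC belonged to Cxcl3, at 0 counts in the 5 Control libraries and at least 120-fold higher in KO (edgeR adjusted p = 0.298). Cxcl14 and Ccl28 were at 0 counts in the 7 KO libraries and at least 22.8-fold and 19.3-fold lower there (edgeR adjusted p = 0.298 and 0.329). The Control levels behind both are low, at 4.93 CPM or less for Cxcl14 and 6.59 CPM or less for Ccl28. Without cTEC Control replicate 1 the Cxcl14 bound was 14.8-fold, and without cTEC Control replicate 2 the Ccl28 bound was 2.51-fold. Replicates 2, 3, 6 and 7 of cTEC KO carry the Cxcl3 counts, and the other 3 were at 0 like the Control.

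In MHCII-low mTEC the smallest p values were those of Ccl28 (ratio of Control to KO 19, counting interval 2.63 to 833, edgeR adjusted p = 0.791, and a ratio of 2.83 without Control replicate 4), Ccl8 and Ccl2. Ccl2 was at 15.2, 46.6, 15.3 and 2.35 CPM in Control and at 64.1, 400, 103, 63.9, 1.68, 3.35 and 5.06 CPM in KO. Its log2 fold change was 2.20 ± 1.43 (SE, edgeR adjusted p = 0.894). KO replicates 1 to 4, all of the earlier set, lay above every Control library, and KO replicates 5 to 7, of the later set, lay within the Control range or below it. In MHCII-high mTEC, Ccl2 had the smallest p, with 40.8, 17.5, 7.34 and 10.15 CPM in Control, 5.07, 68.0 and 246 CPM (lowest, median and highest) in KO, and a KO over Control value on the log2 scale of 2.54 ± 1.46 (SE, edgeR adjusted p = 0.845). Ccl24, an eosinophil attractant, followed with -3.33 ± 1.99 (SE, edgeR adjusted p = 0.886). Its value rested on 1 Control library at 109 CPM, replicate 5, without which it turned to 0.26. Ccl7, the third, was at 3.01 ± 2.27 on that scale (SE, edgeR adjusted p = 1).

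**Figure D4:**
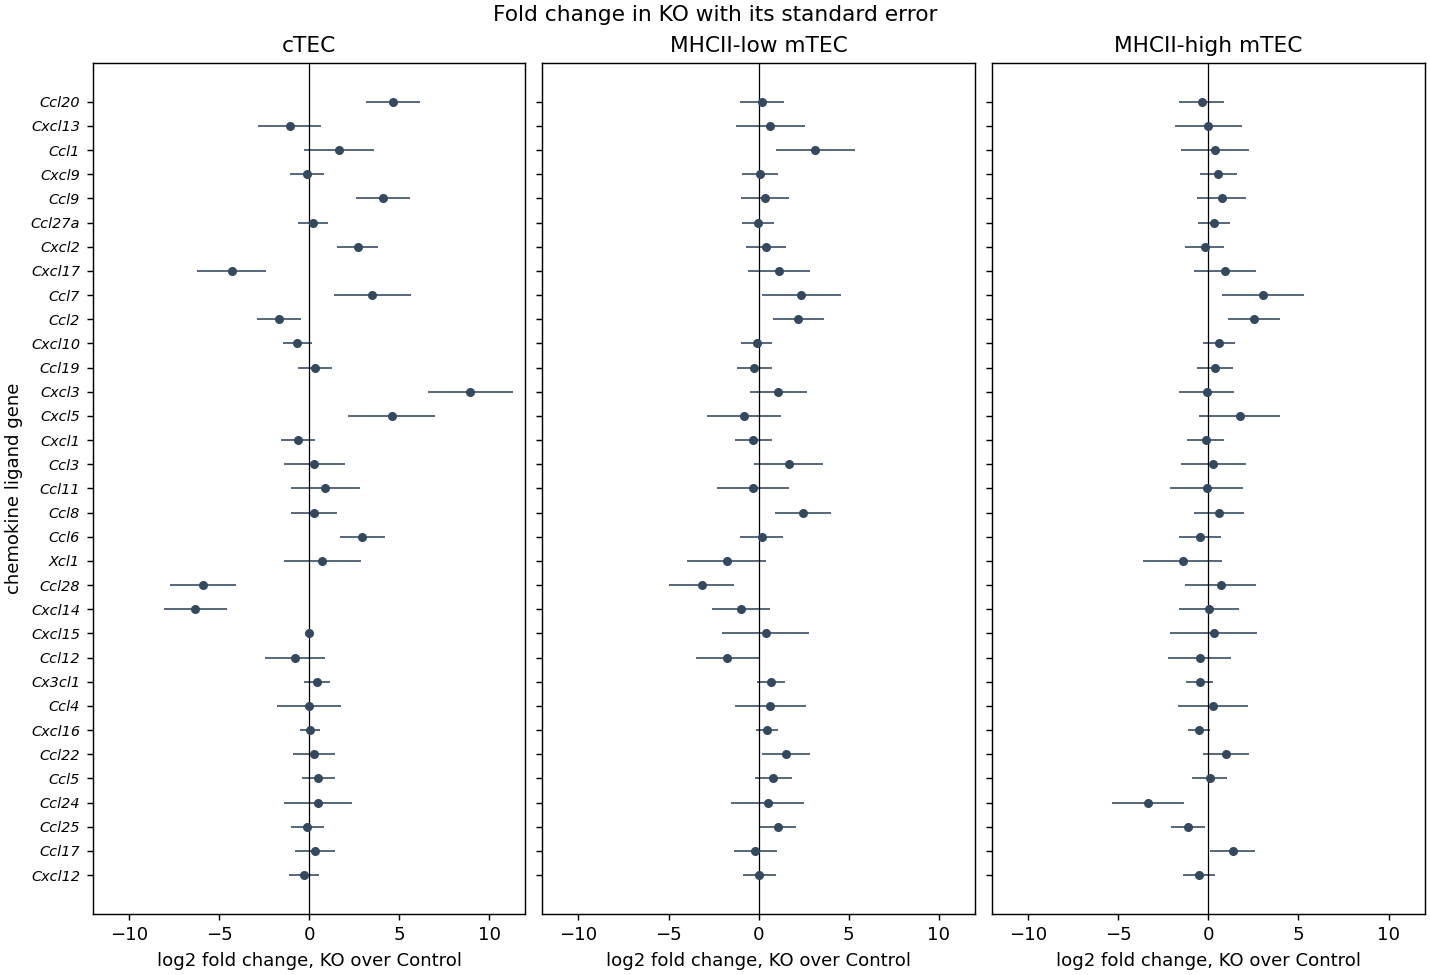
Log2 fold change of KO over Control with its standard error for the 33 tested chemokine ligand genes, in 1 panel for each subset (edgeR); Cxcl15 in cTEC has no standard error. None passed the threshold; in cTEC, Cxcl3 and Cxcl5 (Control) and Cxcl14 and Ccl28 (KO) had 0 counts in a whole group, so their fitted values depend on the prior count and are no measured fold.

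The Ski flox Control gave the same count. No ligand gene passed between KO and Ski flox Control or between Ski flox Control and Control in any subset (0% of all genes). With an unadjusted edgeR p under 0.05 there were 4, 3 and 0 of the 33 for KO against Ski flox Control in cTEC, MHCII-low and MHCII-high mTEC, and 2, 4 and 0 for Ski flox Control against Control. Over all 23040 genes the numbers were 1137, 1410 and 726 for the first and 1090, 1275 and 435 for the second. DESeq2 called 11 over the 3 subsets for the first and 9 for the second, and limma voom 2 and 1. The share of all genes called by either method was not counted. These comparisons share the flox libraries and rest on 2 of them in each subset, all of the later set, so flox genotype and set cannot be told apart against the pooled Control. Ccl20 was at 44.8 and 0 CPM, Cxcl12 at 365 and 267 CPM and Cxcl9 at 134 and 25.7 CPM in cTEC Ski flox Control. The KO difference did not pass as a difference between subsets for any ligand gene either (edgeR interaction terms, 0% of all genes). At an unadjusted edgeR p under 0.05 there were 5, 6 and 0 of the 33, against 1701, 1673 and 1421 of all 23040 genes. DESeq2 called 4 ligand genes and limma voom 0, again without a count over all genes.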

How the data were processed

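The table the authors deposited holds raw counts, whole numbers of reads assigned to each Ensembl identifier, with no scaling between libraries. The submitters' processing notes name GRCm38 and the tools FastQC 0.11.3, HTSeq 0.4.1, Picard 1.134 and SAMtools 1.2. For the aligner, the annotation release and the strand setting, nothing is given in the sources used here. Per the labels' protocols, cDNA was made with SMART-Seq v4 and libraries with Nextera XT, which mark no strand and add no molecular identifiers, so PCR copies count as reads. Symbols came from GENCODE M21, which matched 53360 of 53465 identifiers. CPM were computed on each library's total over the tested genes, multiplied by its TMM factor. Libraries under 100000 counts were left out (2 of 42). edgeR 4.0.16 (R 4.3.3) fitted all 40 libraries in its quasi-likelihood test with TMM factors, 1 mean for each of 9 groups and filterByExpr (minimum count 10, minimum total 15); 23040 of 37695 genes with a count were tested, with Benjamini-Hochberg adjustment over all of them and a threshold of 0.05. A group at 0 was set to 3 counts over the group for a lower bound; bounds and ratios cover counting error only. The test was checked on simulated data. Alternatives were RLE factors, other filters, all 42 libraries, only the groups compared, the library set as a term, each set alone, DESeq2 1.42.0, limma 3.58.1 voom and each library left out; a fit without replicate 1 of both cTEC groups was chosen after seeing the data. Named in full are genes with a group median of at least 10 CPM, genes called in any comparison, Ccl21a, and the 3 of smallest p in each KO against Control comparison. The members, gene lists and tests were chosen with earlier results of these data known. Replicate numbers follow accession order and pair no libraries. No 2 libraries held identical values.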

Additional observations from a re-analysis of the deposited data

Results flagged for a closer look

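Within a group of 4 to 10 libraries, the lowest and the highest library of each ligand gene were compared with the others by Dixon's test. One or the other stood further off than the test allows in 12 of 117 pairs of a gene and a group. Chance alone gives about 1 in 20 (5.85) for either end. In all 12 it was the lowest library. Of the 12, 10 concern Ccl22, Ccl5, Ccl17 and Cxcl16 in replicate 1 libraries.

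In cTEC Control replicate 1, Ccl22 was at 1.23 CPM (others 2038 to 3771), Ccl5 at 3.17 CPM (1717 to 2611), Ccl17 at 2.11 CPM (208 to 683) and Cxcl16 at 84.7 CPM (762 to 1483). In cTEC KO replicate 1, Ccl22 was at 69.0 CPM (2081 to 4698), Ccl5 at 669 CPM (2096 to 3092), Ccl17 at 0 CPM (249.5 to 692) and Cxcl16 at 82.5 CPM (505 to 1523). Within their groups, Ccr7, Flt3 and the summed myeloid and dendritic list were also lowest in these 2 libraries, and the summed cortical markers were highest there. The part of other cell types in the ligand levels was not tested. Ccl22 was low in replicate 1 of both mTEC KO groups as well, at 0 CPM in MHCII-low mTEC (162 to 1813) and at 14.96 CPM in MHCII-high mTEC (412 to 2913).

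Ccl25 was at 33.6 CPM in cTEC KO replicate 5, against 684 to 2634 CPM in the other 6 libraries. That library also had the lowest Psmb11, Prss16 and Cxcl12 of its group, at 6.51, 3.90 and 44.2 CPM. Cxcl9 was at 16.6 CPM in MHCII-low mTEC KO replicate 5, against 79.5 to 237 CPM in the others.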

How the results depend on the processing

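Of the 24 calls of a ligand gene in a comparison, all 24 kept direction and side of the threshold with RLE factors and with all 42 libraries, 23 with no filter, with the library set as a term and by DESeq2, 22 without replicate 1 of both cTEC groups and 14 by limma voom. With a filter of 10 CPM in 5 libraries, 23 of the 24 gave a value and all 23 were kept. With only the groups compared in the fit, 19 gave a value, of which 10 were kept and 9 lost. The earlier set alone gave 23 values and kept 2, and the later set alone kept 9 of 24, with fewer libraries in each. The number of ligand genes called moved by more than 1.5 times as follows. For MHCII-low mTEC against cTEC in Control (2 called) it was 5 with the stricter filter, 4 with the set as a term, 0 in the earlier and 5 in the later set, 10 by DESeq2 and 5 by limma voom. For MHCII-high mTEC against cTEC in Control (4) it was 8 with only the groups compared, 0 and 2 in the earlier and later set, 11 by DESeq2 and 7 by limma voom. In KO, MHCII-low mTEC against cTEC (7) gave 1 with only the groups compared, 0 and 2 by set, and 1 by limma voom, and MHCII-high mTEC against cTEC (11) gave 4 with only the groups compared and 2 and 7 by set. MHCII-high against MHCII-low mTEC (0) gave 2 in the later set in Control and 2 in KO. Comparisons between genotypes (0) gave 5 for KO against Control in cTEC by DESeq2, 11 by DESeq2 and 2 by limma voom for KO against Ski flox Control, and 4 in the later set, 9 by DESeq2 and 1 by limma voom for Ski flox Control against Control; the KO difference between subsets gave 4 by DESeq2. The cause was not tested. For DESeq2, limma voom and the other alternatives the share of all genes called was not counted, so these numbers cannot be set against it. Leaving out 1 library gave 1 to 1, 2 to 4, 5 to 9 and 9 to 14 calls in the 4 comparisons of mTEC with cTEC, in the order above, and 0 to 0 in all others. Among log2 fold changes, Ccl2 in KO against Control in MHCII-low mTEC turned to -1.40 in the later set, and Ccl24 in MHCII-high mTEC turned to 0.51 in the earlier set and to 0.26 without MHCII-high mTEC Control replicate 5; without KO replicate 4, which leaves KO at 0, its fitted value was -10.14 and is no bound. No paired analysis was run, because the replicate numbers follow accession order only and no label ties libraries to an animal. With 200 cells to a library and a biological coefficient of variation of 1.40, a p above the threshold does not show that levels were alike.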

Other observations

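The receptors that read these ligands were counted as well, in cells whose gates exclude CD45. None of the 18 chemokine receptor genes and none of the 4 atypical receptor genes tested passed in any comparison by edgeR. Ccr7, the receptor of Ccl19 and Ccl21a, had the highest median of the receptors in cTEC, at 1924 CPM in Control (14.8 to 4834) and 2518 CPM in KO (195.5 to 4567). Ccr9, which reads Ccl25, had a median of 64.1 CPM in cTEC Control (38.6 to 242) and 15.2 CPM in MHCII-high mTEC Control (8.35 to 34.3). Cxcr4, which reads Cxcl12, stayed at or below 48.9 CPM in every Control and KO library.

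Ackr4, a scavenging receptor that removes Ccl19, Ccl21 and Ccl25, was at a median of 28.0 CPM in cTEC Control (0 to 249) and 86.3 CPM in MHCII-low mTEC Control (1.58 to 109). In KO its medians were 0 CPM in cTEC (0 to 328), 105 CPM in MHCII-low mTEC (0 to 170) and 2.14 CPM in MHCII-high mTEC (0 to 18.5). The ranges overlapped in both genotypes. Cxcl11, the interferon-inducible Cxcr3 ligand left out as a polymorphic pseudogene, also passed in no comparison.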
